A study of Homo sapiens with 16 samples.

Results

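Natural antisense transcripts were followed in polyadenylated RNA from 2 human clear cell renal carcinoma lines that differ in SETD2, the histone methyltransferase that trimethylates lysine 36 of histone H3 along transcribed genes. They were taken as every gene name that ends in -AS and a number and has 1000 or more counts summed over the 16 libraries. Of 60606 names counted, 1765 had such an ending, and 172 of those reached the total. Totals of the 172 ran from 1003 to 35266 counts, with a median of 1843.5. The antisense RNAs were chosen by their measured count, so their abundance is given as a description. The last names inside the limit were VPS9D1-AS1 with 1004 counts and ZNF433-AS1 with 1003, and the first outside it were TRHDE-AS1 and DICER1-AS1 with 997 each. The 172 held 78.9% of all counts given to antisense names and between 0.163% and 0.207% of the counts of a library, while 446 antisense names had no count at all.

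The 786-O line is a cultured human renal carcinoma line. Its SETD2 knockout (KO) cells and its SETD2 wild-type (WT) cells received A1331852, which blocks the survival factor BCL-XL, at 100 nM for 72 h, or the vehicle DMSO. Each of these 4 groups had 3 libraries. A498, another renal carcinoma line, was untreated and carried the label deficient or add-back for SETD2, in 2 libraries per label. The labels do not say whether KO cells came from 1 clone, or whether replicates were grown separately. Every p-value therefore rests on variation among libraries that may be technical. In bulk RNA of this kind, fewer cells that make a transcript and less of it per cell cannot be told apart, and reads carried no molecular identifiers. Batch 1 held DMSO replicate 3 of both genotypes and every A1331852 library, batch 2 held DMSO replicates 1 and 2, and batch 3 held A498. Totals per library ran from 14172118 to 36037616 counts. SETD2 itself lay between 29.3 and 31.2 CPM, the count scaled to a common library size in KO cells in DMSO, against 63.4 to 73.4 CPM in WT cells, and between 29.2 and 52.2 CPM in KO cells in A1331852, against 62.8 to 70.1 CPM in WT cells. In A498 it lay between 40.6 and 58.5 CPM in the libraries labelled deficient and between 44.0 and 52.8 CPM in those labelled add-back, so its count did not separate those 2 groups. Of the renal carcinoma markers, PAX8, PAX2, VIM, NNMT, CDH16 and EPAS1 were present in every group, whereas CA9 did not pass 0.827 CPM. Of markers of other cells, PTPRC, CD3E, PECAM1, CDH5 and VWF did not pass 0.324 CPM, LYZ did not pass 1.02 CPM, and CD14 lay between 0.674 and 1.41 CPM in KO cells in DMSO, against 0.0633 to 0.16 CPM in WT cells, and reached 1.43 CPM. The fibroblast markers COL1A1 and LUM reached 65.1 CPM (A498 labelled deficient) and 8.8 CPM (WT cells in DMSO). The part of these markers in the results was not tested.

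An antisense transcript is copied from the DNA strand opposite to another gene, usually a protein-coding one, and is named after it. Many start close to the start of that gene and are read away from it, others run into its end, and most are noncoding. Some are known to act on the gene they are named after, through the RNA itself or through the act of transcription, and others act elsewhere or have no known role.

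Promoter sequence is shown first for the antisense RNAs on which the comparisons turn, as RefSeq gives it (GRCh38.p14; 250 bases before the start and 50 after, 5′ to 3′ on the strand of the antisense RNA). Capitals mark motif letters found on either strand, and no capital letter appears where none was found. SBF2-AS1 (chr11:9758043-9758342, + strand), PAXIP1-AS2 (chr7:154928267-154928566, + strand) and PCBP1-AS1 (chr2:70086966-70087265, - strand) are shown because they were higher in KO cells in both treatments. In SBF2-AS1 the capitals are GGGCGG, the core of a GC box, at 58 and 49 bases before the start.
SBF2-AS1: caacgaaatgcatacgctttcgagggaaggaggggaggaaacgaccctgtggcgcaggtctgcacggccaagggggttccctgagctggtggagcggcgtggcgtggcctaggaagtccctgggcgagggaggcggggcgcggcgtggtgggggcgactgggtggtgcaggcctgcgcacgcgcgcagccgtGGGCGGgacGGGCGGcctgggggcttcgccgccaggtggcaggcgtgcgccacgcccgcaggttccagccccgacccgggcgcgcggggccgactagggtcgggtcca
In PAXIP1-AS2 they are CCAAT boxes at 162, 121 and 41 bases before the start.
PAXIP1-AS2: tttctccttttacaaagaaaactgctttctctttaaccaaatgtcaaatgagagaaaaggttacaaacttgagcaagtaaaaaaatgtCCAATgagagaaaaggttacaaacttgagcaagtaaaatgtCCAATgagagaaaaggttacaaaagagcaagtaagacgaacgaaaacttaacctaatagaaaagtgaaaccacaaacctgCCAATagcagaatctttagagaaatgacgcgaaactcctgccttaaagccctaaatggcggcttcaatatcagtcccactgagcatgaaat
In PCBP1-AS1 they are CCGGAAG, the core bound by ETS factors, on the opposite strand 4 bases before the start, and GGGCGG 10 bases after it. That RefSeq start lies inside the span counted for PCBP1-AS1, which begins at base 70103220 on the - strand. The window is therefore not at the start of the counted span.
PCBP1-AS1: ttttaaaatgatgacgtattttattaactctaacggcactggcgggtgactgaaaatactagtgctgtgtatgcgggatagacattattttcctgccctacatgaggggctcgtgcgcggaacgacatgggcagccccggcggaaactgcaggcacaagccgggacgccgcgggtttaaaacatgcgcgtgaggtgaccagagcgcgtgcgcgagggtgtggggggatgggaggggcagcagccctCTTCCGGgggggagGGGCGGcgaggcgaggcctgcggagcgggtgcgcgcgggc

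PSMB8-AS1 (chr6:32843836-32844135, + strand) is shown because in A1331852 it was higher in KO cells together with PSMB8, its partner. Its capitals are GGGCGG 87 bases before the start and, 44 bases before it, the letters of an interferon-stimulated response element (searched as TTTC, any 2 bases, TTTC), both on the opposite strand.
PSMB8-AS1: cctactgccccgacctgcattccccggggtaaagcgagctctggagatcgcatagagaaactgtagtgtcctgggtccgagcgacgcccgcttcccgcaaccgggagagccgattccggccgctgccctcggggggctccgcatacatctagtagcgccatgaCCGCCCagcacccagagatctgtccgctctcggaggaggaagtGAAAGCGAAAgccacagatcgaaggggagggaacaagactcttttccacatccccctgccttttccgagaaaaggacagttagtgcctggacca
POT1-AS1 (chr7:124929623-124929922, + strand) and ZNF561-AS1 (chr19:9621232-9621531, + strand) are shown because their starts lie 48 and 250 bases from those of POT1 and ZNF561, which are read the other way. The windows of both genes of a pair overlap by 147 and 251 bases. POT1-AS1 holds GGGCGG on the opposite strand 40 bases after its start, and ZNF561-AS1 holds none of the motifs searched.
POT1-AS1: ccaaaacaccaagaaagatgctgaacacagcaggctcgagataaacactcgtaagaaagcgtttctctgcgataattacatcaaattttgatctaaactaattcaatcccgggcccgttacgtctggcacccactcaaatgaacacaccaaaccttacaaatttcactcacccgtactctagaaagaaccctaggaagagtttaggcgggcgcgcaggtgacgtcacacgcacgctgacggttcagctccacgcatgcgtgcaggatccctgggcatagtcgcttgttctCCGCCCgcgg
ZNF561-AS1: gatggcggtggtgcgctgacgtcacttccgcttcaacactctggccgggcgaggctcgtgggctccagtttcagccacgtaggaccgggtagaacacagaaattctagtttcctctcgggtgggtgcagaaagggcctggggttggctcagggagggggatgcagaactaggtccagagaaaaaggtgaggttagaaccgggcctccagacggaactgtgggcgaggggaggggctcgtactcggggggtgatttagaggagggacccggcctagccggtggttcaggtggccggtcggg

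RefSeq gave such a window for 134 of the 172 antisense RNAs, and the same letters were counted in all 35116 windows of its table. GGGCGG was in 60.4% of the antisense windows and 45.0% of all windows, CCGGAAG in 18.7% and 10.3%, CCAAT in 31.3% and 34.6%, TATAAA in 3.73% and 11.5%, and the response element letters in 3.73% and 3.57%. The median GC content was 64.2% in the antisense windows and 58.7% in all. The 134 belong to RNAs chosen by their count, whereas the 35116 were taken whatever their count. The differences are therefore not read as a trait of antisense promoters. These motifs were searched on both strands, none holds another, and a match is a run of letters, not a bound site.

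In the annotation the counts were made with (GENCODE release 41 on GRCh38), 168 of the 172 antisense RNAs had a partner, that is, a counted gene with the name that stands before -AS. The exceptions were HOXA-AS2, HOXA-AS3, HOXD-AS2 and HOXB-AS1, which are named after gene clusters. Head-to-head pairs, with starts facing, were the commonest, with 83 pairs whose spans overlapped and 8 that did not. Tail-to-tail pairs numbered 40 with an overlap and 1 without. In 18 pairs the antisense RNA lay inside its partner and in 17 the partner lay inside the antisense RNA, and in 1 pair both genes were on the same strand. Of the 167 pairs on opposite strands, 140 shared exon bases, and 51 had starts within 1000 bases of each other. Counting used strand, so shared bases on opposite strands were assigned by strand, but 21 antisense RNAs also shared exon bases with another gene of their own strand, none over 50% of its length. Per kilobase of exon and over all libraries, the level of the antisense RNA was a median of 0.374 times that of its partner, and 49 of 168 antisense RNAs had the higher level. In 9 pairs the antisense count was under 2% of that of the partner, among them VIM-AS1 with 0.297% of the count of VIM, the gene of the intermediate filament protein vimentin.

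The 6 most abundant antisense RNAs held 22% of the counts of all 172, and they differed in how evenly the groups shared them. FGD5-AS1 (chr3:14920347-14948424, - strand) had 98.7, 105 and 114 CPM in KO cells and 105, 105 and 111 CPM in WT cells in DMSO, 93.1, 103 and 104 CPM in KO cells and 128, 119 and 110 CPM in WT cells in A1331852, and 80.0 and 86.9 CPM in A498 labelled deficient against 101 and 110 CPM in add-back. FGD5-AS1 was thus present at a like level in both lines, although its partner FGD5, a guanine nucleotide exchange factor of endothelium, had 3 counts over the 16 libraries. OIP5-AS1, known as Cyrano and as a binder of the microRNA miR-7, lay between 61.7 and 124 CPM in every library. AFAP1-AS1 and MAGI2-AS3 were each high in 1 line only. AFAP1-AS1 had 286 and 396 CPM in A498 labelled deficient and 177 and 227 CPM in add-back, and 0.0608 to 1.43 CPM in the 12 libraries of 786-O. MAGI2-AS3 had 50.3 to 69.2 CPM in 786-O, with 15813 counts in all, and 2 counts in A498. CCDC183-AS1 ran from 11.6 to 151 CPM in 786-O and from 6.6 to 8.01 CPM in A498, and SLC9A3-AS1, named after a sodium-hydrogen exchanger of the renal tubule, from 33.1 to 65.7 CPM in 786-O and from 11.6 to 25.6 CPM in A498. Line and batch cannot be told apart in these levels, so no test was made between the lines.

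Besides MAGI2-AS3, another 8 antisense RNAs had too few counts in A498 to be tested there. NNT-AS1 had 5116 counts in 786-O and 1 in A498, and GATA2-AS1, named after a transcription factor of blood formation, had 4188 and 7. ZNF528-AS1, ZFHX4-AS1, ZNF667-AS1, VPS9D1-AS1 and ZNF433-AS1 had 1000 to 1707 counts in 786-O and 0 to 4 in A498.

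**Figure D1:**
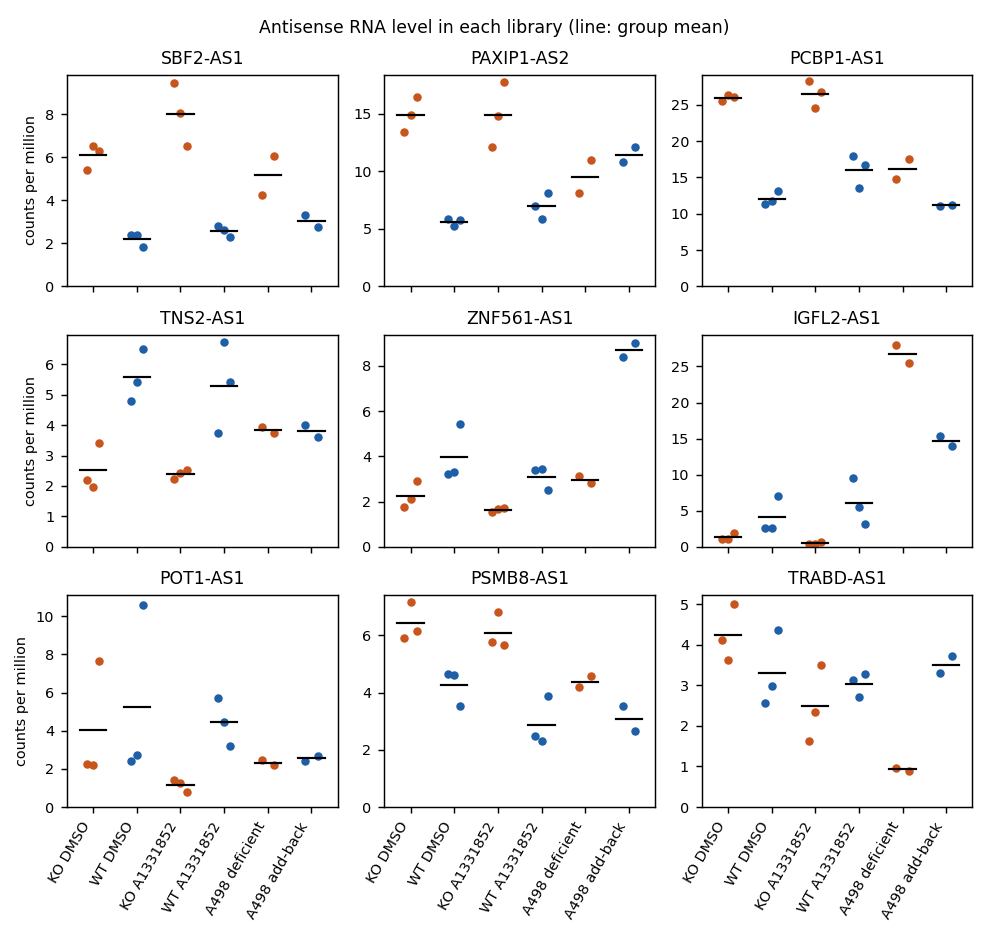
Level of 9 antisense RNAs in every library, in CPM, with KO or deficient libraries in orange, WT or add-back libraries in blue and a black line at each group mean. SBF2-AS1, PAXIP1-AS2 and PCBP1-AS1 lie above WT in all KO libraries of both treatments, POT1-AS1 has 1 high DMSO library per genotype, and TRABD-AS1 lies lowest in the 2 libraries labelled deficient.

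In vehicle, KO and WT cells differed in 29 of the 172 antisense RNAs, 12 higher and 17 lower in KO cells, or 16.9%. Over all 16260 genes tested 18.5% were called, 8.29% higher and 10.2% lower, so the antisense RNAs were called about as often as genes in general. Their median log2 fold change was -0.04, against -0.02 for all genes. The higher ones were led by SBF2-AS1, reported to promote growth in several cancers, by TMEM51-AS1 and by PAXIP1-AS2, and the lower ones by IGFL2-AS1, VPS9D1-AS1 and FLG-AS1.

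SBF2-AS1 (chr11:9758268-9811335, + strand), which overlaps the end of SBF2, the gene of a catalytically inactive phosphatase of the myotubularin family, had 5.41, 6.54 and 6.31 CPM in KO cells, against 2.40, 2.40 and 1.84 CPM in WT cells. The groups did not overlap, as for 40.7% of the antisense RNAs and 31% of all genes tested in this comparison. The log2 fold change was 1.45 ± 0.20 (SE, n = 3 each, adjusted p = 0.000565). PAXIP1-AS2 (chr7:154928460-154952188, + strand) had 13.4, 14.9 and 16.5 CPM in KO cells and 5.88, 5.27 and 5.76 CPM in WT cells, a log2 fold change of 1.39 ± 0.18 (adjusted p = 0.000358). Its partner PAXIP1, a component of histone methyltransferase complexes and of the DNA damage response, differed by -0.13 ± 0.14 (adjusted p = 0.603). PCBP1-AS1 (chr2:69960104-70103220, - strand), whose span of noncoding exons holds the intronless gene PCBP1, had 25.5, 26.3 and 26.1 CPM in KO cells and 11.3, 11.7 and 13.1 CPM in WT cells. It rose by 1.11 ± 0.14 (adjusted p = 0.000274), and PCBP1, the gene of an RNA-binding protein of poly(C) tracts, differed by -0.13 ± 0.11 (adjusted p = 0.476). All 3 antisense RNAs were called with any 1 library left out.

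Among the lower ones, TNS2-AS1 (chr12:53012884-53054450, - strand) had 2.19, 1.98 and 3.42 CPM in KO cells, against 4.79, 5.43 and 6.52 CPM in WT cells. It fell by 1.17 ± 0.22 on the log2 scale (adjusted p = 0.00356), with no overlap of the groups, while its partner TNS2, the gene of the focal adhesion protein tensin 2, rose by 0.85 ± 0.14 (adjusted p = 0.00128). TNS2 had 70.4, 71.2 and 38.6 CPM in KO cells and 38.7, 38.7 and 21.8 CPM in WT cells, with replicate 3, the library of the other batch, lowest in both. SERTAD4-AS1 (chr1:210231456-210234047, - strand) had 2.55, 2.51 and 2.99 CPM in KO cells and 4.76, 5.78 and 7.28 CPM in WT cells, a log2 fold change of -1.13 ± 0.18 (adjusted p = 0.00106). SERTAD4, a gene of the SERTA domain family, fell with it by 1.02 ± 0.15 (adjusted p = 0.000951). FLG-AS1 had 3.19, 2.77 and 3.71 CPM in KO cells and 6.23, 6.61 and 11.2 CPM in WT cells, and fell by 1.27 ± 0.21 (adjusted p = 0.00154). FLG, the gene of the epidermal protein filaggrin, which lies inside its span, fell by 1.72 ± 0.28 (adjusted p = 0.00151), a call lost without the batch term.

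Within the batches, all 29 antisense RNAs had the same sign of the KO minus WT difference in batch 1 and in batch 2. They were called from these same libraries, so that agreement was largely set by the choice and is no separate evidence. The count of 29 moved with the libraries used. Batch 2 only, with replicates 1 and 2, gave 105. It was 12 without KO replicate 3 or WT replicate 3, 13 without WT replicate 1 or 2, 14 without KO replicate 2 and 15 without KO replicate 1. For batch 2 only and for these fits the share of all genes called is not given here. Their counts are therefore not read as a trait of the antisense RNAs. With the replicate number as a block within treatments, 56 were called, among them all 29, and 28.6% of all genes. TMEM51-AS1, at 10.1, 7.61 and 6.55 CPM in KO cells and 3.23, 3.30 and 2.40 CPM in WT cells, rose by 1.43 ± 0.40 (adjusted p = 0.028) and lost its call without any 1 of the 6 libraries. IGFL2-AS1 fell by 1.53 ± 0.37 (adjusted p = 0.0127) and lost its call without KO replicate 3 or WT replicate 3 (adjusted p = 0.102 and 0.092). The VPS9D1-AS1 call was lost without replicate 1 or 2 of KO or WT cells (adjusted p of up to 0.12).

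In A1331852, KO and WT cells differed in 45 of the 172 antisense RNAs, 15 higher and 30 lower in KO cells. That is 26.2%, beside 28.2% of all genes tested, 13.2% higher and 15.0% lower. The median log2 fold change was -0.16 over the antisense RNAs and -0.01 over all genes. The higher ones were led by AFAP1-AS1, SBF2-AS1, DLGAP1-AS2 and 2 named after interferon-related genes, and the lower ones by IGFL2-AS1, POT1-AS1 and ZNF710-AS1.

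AFAP1-AS1, associated with invasion in several cancers, had 1.22, 1.43 and 0.991 CPM in KO cells and 0.714, 0.316 and 0.0608 CPM in WT cells in A1331852 (1.72 ± 0.53, adjusted p = 0.0291). That call was lost without KO replicate 1, KO replicate 2 or WT replicate 2 (adjusted p of up to 0.0955). SBF2-AS1 had 9.46, 8.04 and 6.54 CPM in KO cells and 2.80, 2.62 and 2.31 CPM in WT cells in A1331852, a log2 fold change of 1.64 ± 0.20 (adjusted p = 0.000178). PAXIP1-AS2 had 12.1, 14.8 and 17.8 CPM in KO cells and 7.03, 5.87 and 8.09 CPM in WT cells (1.09 ± 0.18, adjusted p = 0.00104). PCBP1-AS1 had 28.3, 24.5 and 26.7 CPM in KO cells and 17.9, 13.5 and 16.7 CPM in WT cells (0.73 ± 0.14, adjusted p = 0.00226). For each of SBF2-AS1, PAXIP1-AS2 and PCBP1-AS1, KO libraries lay above all WT libraries of the same treatment. TNS2-AS1 was lower in KO cells here too, with 2.22, 2.41 and 2.51 CPM against 3.73, 6.73 and 5.41 CPM in WT cells (-1.15 ± 0.23, adjusted p = 0.00334), and TNS2 was higher (0.59 ± 0.14, adjusted p = 0.00766).

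IRF1-AS1 and PSMB8-AS1 rose together with their partners. IRF1-AS1 (chr5:132410636-132488702, + strand), which runs into the end of IRF1, had 6.08, 9.37 and 9.84 CPM in KO cells and 2.86, 4.56 and 3.22 CPM in WT cells, a log2 fold change of 1.24 ± 0.23 (adjusted p = 0.00213). IRF1, a transcription factor of the interferon response, had 83.6, 91.9 and 91.7 CPM in KO cells and 35.6, 46.3 and 49.9 CPM in WT cells (1.03 ± 0.13, adjusted p = 0.000154). PSMB8-AS1 (chr6:32844078-32846500, + strand), which starts head to head with PSMB8, had 5.76, 6.81 and 5.68 CPM in KO cells and 2.47, 2.30 and 3.89 CPM in WT cells (1.09 ± 0.22, adjusted p = 0.00374). PSMB8, an interferon-induced subunit of the immunoproteasome, had 129, 133 and 131 CPM in KO cells and 61.0, 68.0 and 77.4 CPM in WT cells (0.93 ± 0.11, adjusted p = 0.000109). Neither antisense RNA overlapped between the groups, as was so for 32.6% of the 172 and 34.7% of all genes tested. PSMB8-AS1 shares exon bases with PSMB9 on its own strand over 7.2% of its length, and IRF1-AS1 with another gene over 8.6%. In vehicle, PSMB8-AS1 differed by 0.58 ± 0.21 (adjusted p = 0.0777) and IRF1-AS1 by 0.41 ± 0.22 (adjusted p = 0.235).

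POT1-AS1 (chr7:124929873-125482966, + strand) had 1.43, 1.28 and 0.792 CPM in KO cells and 5.71, 4.47 and 3.22 CPM in WT cells in A1331852, and fell by 1.91 ± 0.27 on the log2 scale (adjusted p = 0.000423). POT1, which starts within the same stretch of promoter and encodes a protein of the single-stranded end of telomeres, had 35.4, 43.4 and 50 CPM in KO cells and 47.9, 45.6 and 58.8 CPM in WT cells (-0.24 ± 0.15, adjusted p = 0.263). POT1-AS1 lost its call when the batch term was left out of the fit (adjusted p = 0.0739). In DMSO it had 7.66 CPM in KO cells and 10.6 CPM in WT cells in batch 1, and 2.25 and 2.18 CPM in KO cells and 2.40 and 2.75 CPM in WT cells in batch 2. IGFL2-AS1 (chr19:46189029-46203160, - strand) had 0.370, 0.358 and 0.726 CPM in KO cells and 9.56, 5.51 and 3.16 CPM in WT cells, the largest fall among the 172 (-3.67 ± 0.43, adjusted p = 0.000121). Its partner IGFL2, of a family of insulin growth factor-like peptides, had 50 counts over all libraries and was not tested. ZNF710-AS1 had 3.65, 4.45 and 6.74 CPM in KO cells and 12.4, 16.7 and 20.6 CPM in WT cells (-1.74 ± 0.27, adjusted p = 0.000657), while the zinc finger gene ZNF710, whose end it overlaps, rose by 0.44 ± 0.12 (adjusted p = 0.0161), a call lost without the batch term or the filter.

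Of the 29 antisense RNAs called in vehicle and the 45 called in A1331852, 17 were called in both, which is 58.6% of the first and 37.8% of the second, and all 17 had the same direction. Over all genes the shares were 71.1% and 46.5%, with 99.4% in the same direction. These 2 comparisons used different libraries but 1 fit. The A1331852 count of 45 became 69 without WT replicate 3 and lay between 33 and 45 without any other library. No share of all genes is given here for those fits. With the replicate block within treatments, 70 were called, among them all 45, and 38.6% of all genes.

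**Figure D2:**
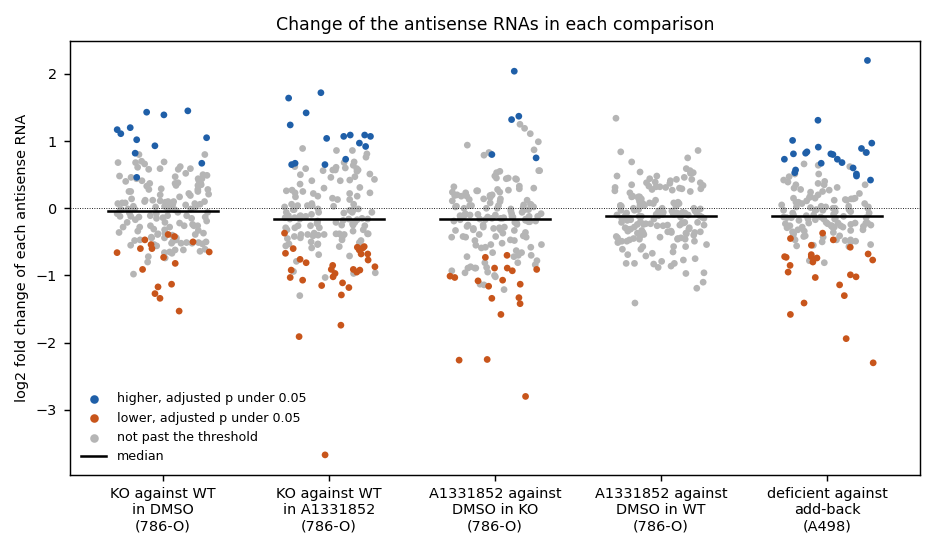
Log2 fold change of each antisense RNA (vertical axis) in 5 comparisons, 1 point per RNA, 172 in 786-O and 163 in A498, with called RNAs in blue (higher) or orange (lower) and a black line at the median. IGFL2-AS1, at -3.67, lies lowest in the second column, and no point is called in the column of WT cells.

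The response to A1331852 itself, against DMSO, was called for 24 of the 172 antisense RNAs in KO cells, 5 higher and 19 lower (14%, beside 13.5% of all genes, 6.46% higher and 7.08% lower). In WT cells none was called, beside 0.141% of all genes. At an unadjusted p under 0.05 there were 14 antisense RNAs in WT cells, where 12.8% of all genes had one, and DESeq2 called 5. The difference between the responses of KO and WT cells was called for none of the 172, beside 0.295% of all genes. An unadjusted p under 0.05 was found for 14, beside 10.8% of all genes, and DESeq2 called 5. For both DESeq2 counts the share of all genes called is not given here. With batch in the fit, the response rested on DMSO replicate 3 of each genotype, the only DMSO libraries of the batch that held the A1331852 libraries. The median log2 response was -0.16 in KO cells, where all genes had 0.01, and -0.11 in WT cells, where all genes had -0.00.

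PRR7-AS1 (chr5:177438503-177447982, - strand), named after an adaptor protein of the plasma membrane, had 5.34, 4.45 and 3.30 CPM in KO cells in A1331852 and 2.80, 2.96 and 1.06 CPM in KO cells in DMSO. Its log2 fold change was 2.04 ± 0.30 (adjusted p = 0.00205), and PRR7 rose by 0.89 ± 0.21 (adjusted p = 0.0164), a call lost without KO DMSO replicate 3 (adjusted p = 0.308). GAS6-AS1 (chr13:113815630-113845744, + strand) had 4.65, 6.91 and 5.28 CPM in A1331852 and 29.7, 27.8 and 25.3 CPM in DMSO. The groups did not overlap, as for 44.8% of the 172 and 33.2% of all genes in this comparison. GAS6-AS1 fell by 2.26 ± 0.24 (adjusted p = 0.000487), whereas GAS6, a secreted ligand of the receptor kinase AXL, differed by 0.36 ± 0.30 (adjusted p = 0.466). POT1-AS1 had 1.43, 1.28 and 0.792 CPM in A1331852, against 2.25, 2.18 and 7.66 CPM in DMSO, the last in batch 1 (-2.80 ± 0.31, adjusted p = 0.000573). MAP3K14-AS1, named after the kinase of noncanonical NF-kB signalling, had 3.07, 3.84 and 6.21 CPM in A1331852 and 6.55, 6.83 and 10.0 CPM in DMSO (-1.42 ± 0.30, adjusted p = 0.0104).

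PRR7-AS1, POT1-AS1 and MAP3K14-AS1 were not called without the batch term (adjusted p = 0.144, 0.118 and 0.185), and the first of them had a log2 fold change of 0.99 in that fit. The count of 24 fell to 6 without KO DMSO replicate 3, to 8 without KO DMSO replicate 2 or KO A1331852 replicate 1, and to 10 without KO DMSO replicate 1 or KO A1331852 replicate 2. Shares of all genes in those fits are not given here. GAS6-AS1, PRR7-AS1, POT1-AS1 and MAP3K14-AS1 were called with any 1 library of the 2 groups left out.

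In A498, 46 of the 163 antisense RNAs tested differed between the libraries labelled deficient and those labelled add-back, 22 higher and 24 lower (28.2%, beside 30.2% of all genes, 15.1% in each direction). The median log2 fold change was -0.11, against -0.01 for all genes. TMEM51-AS1 rose most and STEAP1B-AS1 and TRABD-AS1 fell most.

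TMEM51-AS1 (chr1:15111815-15153618, - strand), head to head with a gene of a transmembrane protein, had 3.12 and 3.67 CPM in libraries labelled deficient and 0.703 and 0.732 CPM in add-back (log2 fold change 2.20 ± 0.33, SE, n = 2 each, adjusted p = 0.000197). TMEM51 differed by 0.45 ± 0.17 (adjusted p = 0.0548). GAS6-AS1 had 8.65 and 12.5 CPM in deficient and 4.87 and 3.45 CPM in add-back (1.31 ± 0.23, adjusted p = 0.000818). The groups lay apart for both, as they did for 57.1% of the antisense RNAs and 66.1% of all genes tested in A498. DHRS4-AS1, whose span holds DHRS4, a reductase of the peroxisome, had 14.3 and 18.1 CPM in deficient and 8.71 and 8.37 CPM in add-back (0.89 ± 0.18, adjusted p = 0.00176), and TENM3-AS1, of the cell adhesion gene TENM3, had 9.67 and 11.6 CPM in deficient and 5.25 and 5.39 CPM in add-back (0.97 ± 0.19, adjusted p = 0.00167).

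TRABD-AS1 (chr22:50199090-50200837, - strand) had 0.954 and 0.901 CPM in deficient and 3.30 and 3.71 CPM in add-back (-1.94 ± 0.31, adjusted p = 0.00035). TRABD, whose end it overlaps, differed by 0.05 ± 0.14 (adjusted p = 0.814). ZNF561-AS1 (chr19:9621249-9674662, + strand) had 3.12 and 2.83 CPM in deficient and 8.38 and 9 CPM in add-back (-1.58 ± 0.21, adjusted p = 7.43e-05). The zinc finger gene ZNF561, which shares its promoter stretch, differed by -0.29 ± 0.19 (adjusted p = 0.272). PSMG3-AS1, head to head with a chaperone gene of proteasome assembly, had 15.5 and 15.6 CPM in deficient and 33.6 and 41.2 CPM in add-back (-1.30 ± 0.15, adjusted p = 2.28e-05), and MSANTD2-AS1 had 2.42 and 3.47 CPM in deficient and 8.54 and 6.80 CPM in add-back (-1.41 ± 0.24, adjusted p = 0.000572). TMEM51-AS1, GAS6-AS1, DHRS4-AS1, TENM3-AS1, TRABD-AS1, ZNF561-AS1, PSMG3-AS1 and MSANTD2-AS1 were called with any 1 library left out. STEAP1B-AS1, at 0.254 and 0.386 CPM in deficient and 2.06 and 1.1 CPM in add-back, fell by 2.30 ± 0.52 (adjusted p = 0.00413) and lost its call without add-back replicate 1 (adjusted p = 0.133). The count of 46 fell to 24 with DESeq2. It fell also without either add-back library, a fit that leaves 1 library in that group. The share of all genes called in these fits is not given here.

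The genotype difference of 786-O in DMSO was set beside that of untreated A498. Of the 29 antisense RNAs called in 786-O in DMSO and the 46 called in A498, 14 were called in both, 48.3% of the first and 30.4% of the second, 10 in the same direction and 4 in opposite directions. Over all genes the shares were 33.4% and 21.5%, with 66.1% in the same direction. ZNF561-AS1 was lower in both, with 1.74, 2.11 and 2.89 CPM in KO cells of 786-O in DMSO and 3.23, 3.30 and 5.44 CPM in WT cells (-0.82 ± 0.20, adjusted p = 0.0135). SBF2-AS1 (0.73 ± 0.25, adjusted p = 0.0394) and PCBP1-AS1 (0.51 ± 0.17, adjusted p = 0.0322) were higher in A498 labelled deficient too, but both lost that call with DESeq2 (adjusted p = 0.133 and 0.0765) and without deficient replicate 2, add-back replicate 1 or add-back replicate 2. ZNF561-AS1 and IGFL2-AS1 were the only antisense RNAs called in all 4 comparisons that had any call among KO against WT in each treatment, the KO response and A498. The KO response shares libraries with both genotype comparisons of 786-O, and the share of all genes called in all 4 is not given here. IGFL2-AS1 was higher in A498 labelled deficient (0.84) and lower in the comparisons of 786-O.

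The difference of the genotype change between lines was tested in 1 fit over all 16 libraries. It was called for 18 of the 172 antisense RNAs, 9 with the higher log2 change in 786-O and 9 with the higher one in A498 (10.5%, beside 13.2% of all genes, 6.12% and 7.10%). IGFL2-AS1 had 1.05, 1.01 and 1.97 CPM in KO cells of 786-O in DMSO and 2.65, 2.64 and 7.02 CPM in WT cells, but 28 and 25.5 CPM in A498 labelled deficient and 15.3 and 14 CPM in add-back. It was lower in KO cells and higher in deficient ones, and the log2 changes differed by -2.40 ± 0.46 (adjusted p = 0.00318). TRABD-AS1 (2.30 ± 0.41, adjusted p = 0.00192) and PAXIP1-AS2 (1.65 ± 0.29, adjusted p = 0.00155) differed the other way. PAXIP1-AS2, at 8.08 and 11.0 CPM in deficient and 10.8 and 12.1 CPM in add-back, was not called in A498 (-0.29 ± 0.19, adjusted p = 0.259). A498 had no vehicle, so line, batch and vehicle cannot be told apart in this difference. For fits with 1 library left out, the share of all genes called is not given here. The count of 18 fell to 11 without WT DMSO replicate 2 or A498 add-back replicate 1, to 10 without A498 deficient replicate 2 or add-back replicate 2, and to 9 without A498 deficient replicate 1.

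**Figure D3:**
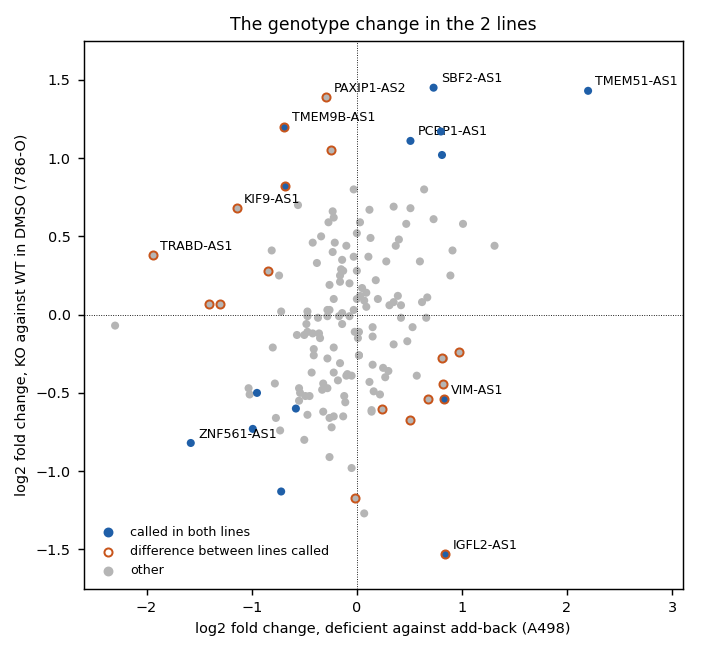
Log2 fold change of KO against WT in DMSO in 786-O (vertical axis) and of deficient against add-back in A498 (horizontal axis) for the 163 antisense RNAs tested in both lines. Blue points are called in both lines, and orange rings mark a called difference between the lines, with IGFL2-AS1 at -1.53 and 0.84 and TRABD-AS1 at 0.38 and -1.94.

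In KO against WT in DMSO, 149 pairs had both genes tested, 24 had the antisense RNA called and 35 the partner, and 9 had both, 7 in the same direction and 2 in opposite directions. The partner was called in 37.5% of pairs with a called antisense RNA and in 20.8% of the other pairs. In A1331852 the antisense RNA was called in 41 pairs, the partner in 49 and both in 15, of which 12 moved the same way, and those shares were 36.6% and 31.5%. The shares were 21.1% and 16.2% in the A1331852 response of KO cells and 27.8% and 25.0% in A498, and no test was made of them. In the KO response 4 pairs had both called, 2 of them the same way, and in A498 10 of 136 pairs, 6 of them the same way. Pairs whose antisense RNA was lower with its partner in KO cells in both treatments were TP73-AS1 with TP73, a transcription factor of the p53 family, SVIL-AS1 with the actin-binding gene SVIL, WAC-AS1 with WAC, and FLG-AS1 with FLG. The opposite pairs in both treatments were TNS2-AS1 with TNS2 and DLGAP1-AS2 with DLGAP1. In A1331852 the calls of TNS2 and DLGAP1 were lost without the batch term, and that of DLGAP1 also without replicate 1 or 2 of KO or WT cells (adjusted p of up to 0.206). DLGAP1-AS2 had 7.63, 8.26 and 6.74 CPM in KO cells and 3.42, 4.13 and 3.54 CPM in WT cells in DMSO (1.02 ± 0.22, adjusted p = 0.00755), while DLGAP1, a scaffold gene of the synapse, had under 1.2 CPM in every library.

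In the genotype comparisons of each line, the log2 changes of antisense RNA and partner correlated more in head-to-head pairs than over all pairs. For the difference between lines they did not (0.26 and 0.28). Over pairs, Pearson's r in KO against WT was 0.45 in DMSO and 0.48 in A1331852 for 88 head-to-head pairs, and 0.23 and 0.27 for all 149. For the 32 tail-to-tail pairs it was 0.43 and 0.17. The 12 pairs with the partner inside the antisense RNA had 0.46 and 0.20. The 16 with the antisense RNA inside its partner had -0.38 and 0.05, so in DMSO head-to-head pairs did not stand apart from all other arrangements. In A498 it was 0.24 for 80 head-to-head pairs, -0.04 for 30 tail-to-tail pairs and 0.14 for all 136. There the 13 pairs with the antisense RNA inside its partner had -0.43. These values describe pairs of genes from the same libraries, pairs are not replicates, and no p was computed.

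**Figure D4:**
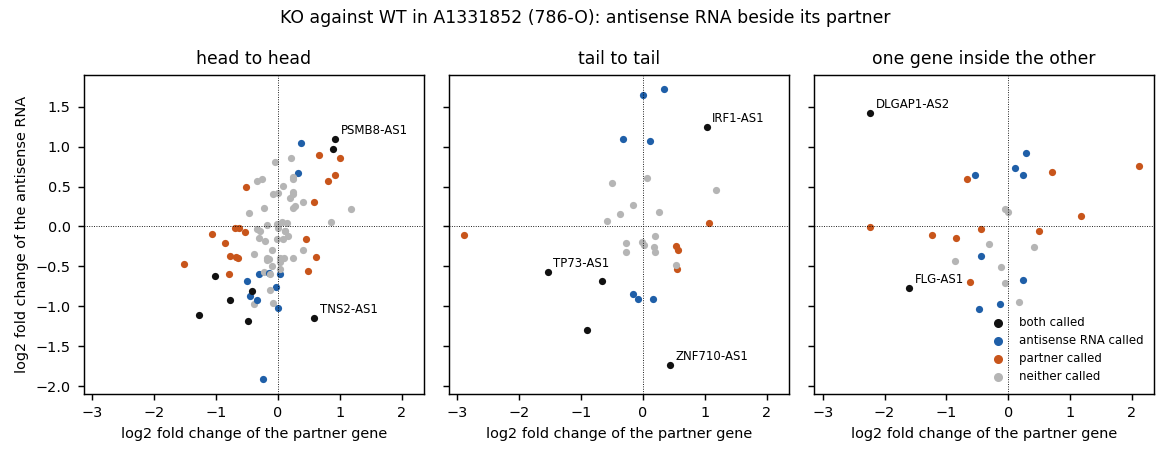
Log2 fold change of KO against WT in A1331852 for each antisense RNA (vertical axis) and its partner (horizontal axis), by the arrangement of the pair. Black points have both genes called, and PSMB8-AS1, IRF1-AS1 and TP73-AS1 lie on the same side of 0 as their partners while TNS2-AS1, ZNF710-AS1 and DLGAP1-AS2 do not.

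VIM-AS1 and VIM were both lower in KO cells of 786-O in DMSO, and both higher in A498 labelled deficient. VIM-AS1 had 13.1, 10.6 and 8.14 CPM in KO cells in DMSO and 17.2, 15.1 and 13.5 CPM in WT cells (-0.54 ± 0.16, adjusted p = 0.0318), and 21.0 and 28.2 CPM in A498 labelled deficient and 11.5 and 15.5 CPM in add-back (0.83 ± 0.19, adjusted p = 0.00402). VIM changed by -0.41 ± 0.12 in 786-O in DMSO (adjusted p = 0.0283) and by 0.64 ± 0.10 in A498 (adjusted p = 0.000249). In A1331852 neither was called, with -0.15 ± 0.16 for VIM-AS1 (adjusted p = 0.52) and -0.30 ± 0.12 for VIM (adjusted p = 0.0766). The VIM-AS1 call was lost in A498 without add-back replicate 1 (adjusted p = 0.0689), and in 786-O without 5 of the 6 libraries in turn, WT replicate 1, 2 or 3 and KO replicate 2 or 3. The VIM-AS1 count was 0.190% to 0.252% of the VIM count in KO libraries in DMSO and 0.203% to 0.318% in WT libraries, and 0.603% to 0.817% in deficient and 0.525% to 0.713% in add-back libraries. The exons of the pair overlap over 30.9% of VIM-AS1, and what part reads of VIM given to the wrong strand have in the VIM-AS1 count was not tested.

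By role, 22 of 48 antisense RNAs listed for a published role were among the 172. That list was made with earlier results of these data known. Its counts beside the shares of all genes are therefore a description and no separate evidence. In KO against WT, 3 were higher and 1 lower in DMSO, where 18.5% of all genes were called. In A1331852, 5 were higher and 1 lower, where 28.2% of all genes were called. The median log2 fold change was 0.26 and 0.20. Of the 4 calls in DMSO, 2 were lost without at least 1 library, and of the 6 in A1331852, 1 was. In A498, 10 of the 21 tested were higher in deficient and 4 lower, with a median of 0.47, where 15.1% of all genes were called in each direction. Of these 14 calls, 12 were lost without at least 1 library, and those of SLC16A1-AS1 and GAS6-AS1 held. Besides those described above, EPB41L4A-AS1, a host of small nucleolar RNA, had 12.6 and 8.24 CPM in deficient and 6.17 and 5.49 CPM in add-back (0.81 ± 0.22, adjusted p = 0.0126), and SLC16A1-AS1, of the lactate transporter gene SLC16A1, had 16.8 and 10.9 CPM in deficient and 8.11 and 7.22 CPM in add-back (0.82 ± 0.21, adjusted p = 0.00896). AFAP1-AS1 rose in A498 (0.73 ± 0.16, adjusted p = 0.00333) while AFAP1, the gene of an actin filament protein, fell (-0.67 ± 0.16, adjusted p = 0.00552). The AFAP1-AS1 call was lost without add-back replicate 1 (adjusted p = 0.053), and that of EPB41L4A-AS1 without deficient replicate 1 or add-back replicate 2 (adjusted p of up to 0.0703). Of 20 listed names of antisense RNAs of immune or interferon-related genes, PSMB8-AS1, IRF1-AS1 and CD27-AS1 were among the 172. The list was made with earlier results known, and HLA-F-AS1, MIF-AS1 and MAP3K14-AS1, also among the 172, were not on it. The 3 listed RNAs were higher in KO cells in A1331852, where 13.2% of all genes were. In DMSO their log2 changes were 0.58, 0.41 and 0.66 (CD27-AS1, SE 0.25, adjusted p = 0.0854), none of them called, and the difference of responses was called for none of the 3.

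Of 11 listed names of antisense RNAs of the HOX clusters, 4 were tested. They gave 1 call in DMSO, where 18.5% of all genes were called, and 2 in A498, where 30.2% were. With 4 RNAs, these counts are not read as a trait of the HOX clusters. HOXA-AS2 was called in A498 only (-0.47 ± 0.14, adjusted p = 0.0182). HOXA-AS3 (chr7:27129977-27155928, + strand) had 4.96, 4.78 and 5.92 CPM in KO cells in DMSO and 2.78, 2.79 and 3.23 CPM in WT cells (0.82 ± 0.24, adjusted p = 0.0314), but 4.77 and 4.50 CPM in A498 labelled deficient and 7.52 and 7.06 CPM in add-back (-0.68 ± 0.20, adjusted p = 0.0195). The DMSO call of HOXA-AS3 was lost without any 1 of the 6 libraries. The A498 calls of HOXA-AS3 and HOXA-AS2 were lost without add-back replicate 1 or 2, and that of HOXA-AS2 also without the filter on low counts. Of 3 antisense RNAs named after kidney and mesenchymal transcription factors, SNAI3-AS1 was lower in KO cells in A1331852 and in the KO response, and FOXD2-AS1 was higher in A498 labelled deficient (0.67 ± 0.23, adjusted p = 0.0429), a call lost without add-back replicate 2 (adjusted p = 0.438).

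Over all comparisons, 87 of the 172 antisense RNAs had no call in any of the 7, or 50.6%, beside 47.5% of all genes. Leaving aside the differences of responses and of lines, 12 were called in both directions, 6.98% beside 6.16% of all genes. SERTAD4-AS1 was lower in KO cells in DMSO, and in KO cells it was higher in A1331852, at 6.18, 4.76 and 5.88 CPM, than in DMSO (0.80 ± 0.22, adjusted p = 0.0345). These 2 comparisons share the KO libraries in DMSO, and the second call was lost without 5 of the 6 KO libraries in turn, all but A1331852 replicate 2. The 324 tested antisense names with totals under 1000 were called in 13.6% in KO against WT in DMSO and 19.8% in A1331852, and 17.4% of 282 in A498.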

How the data were processed

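Polyadenylated RNA of 16 libraries had been sequenced. The deposited values were raw counts per gene name, made by the authors with featureCounts version 1.5.0-p3 (exons summed by gene name, strand setting 2, GENCODE release 41, per the file headers). The submitters' processing notes also name STAR, MultiQC 1.7, DESeq2 and GRCh38. Groups, replicates and batches came from the labels. The members and gene lists were chosen with earlier results of these data known. No library was pooled or left out. A few genes are not reported here.

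Tests used edgeR 4.0.16 in R 4.3.3 (TMM scaling, filterByExpr with a minimum count of 10, quasi-likelihood F test, Benjamini-Hochberg adjustment over all genes tested, calls at an adjusted p under 0.05). The 12 libraries of 786-O were fitted with batch as a term, the 4 of A498 apart, and all 16 for the difference between lines. SE is the absolute log2 fold change divided by the root of F. CPM used TMM-scaled totals of all 16 libraries. Scripts were tested on simulated data.

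Genes were named by a fixed rule: the 6 largest totals, up to 6 per direction and comparison with the largest log2 change and at least 1 CPM in the higher group (4 for the differences), listed RNAs called anywhere, members with calls in both directions, and their partners. Pairs named beside these were chosen after their values were seen. Within a treatment, deviations of same-numbered KO and WT libraries from their group means had r of 0.569 to 0.765 in DMSO and 0.271 to 0.506 in A1331852. For unlike numbers r ran from -0.689 to 0.601 and from -0.404 to 0.222. Unlike numbers within batch 2 of DMSO had 0.601 and 0.566, so number and batch cannot be told apart there. The replicate number was used as a block within treatments as an alternative only. DMSO and A1331852 libraries of 1 number had r of -0.0465 to 0.118. Alternatives were RLE size factors, no filter, DESeq2 1.42.0, no batch term, the replicate block, batch 2 only, and each library left out. Depth limits low counts: counting error alone allows up to 3 counts where none was seen.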

Additional observations from a re-analysis of the deposited data

Results flagged for a closer look

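The antisense RNAs given here are 8 whose genotype change differed between the lines by the test of that difference (KO minus WT in DMSO in 786-O, minus deficient minus add-back in A498, log2 scale). TRABD-AS1 (2.30), TMEM9B-AS1 (1.86), KIF9-AS1 (1.78) and PAXIP1-AS2 (1.65) had the higher log2 change in 786-O. IGFL2-AS1 (-2.40), VIM-AS1 (-1.41), SLC16A1-AS1 (-1.29) and CLN8-AS1 (-1.25) had the higher one in A498. TMEM9B-AS1 had 9.83, 9.89 and 8.57 CPM in KO cells in DMSO and 3.71, 3.74 and 4.94 CPM in WT cells, but 3.31 and 3.35 CPM in A498 labelled deficient and 5.30 and 5.18 CPM in add-back. KIF9-AS1 had 4.81, 4.75 and 4.53 CPM in KO cells and 2.62, 3.58 and 2.59 CPM in WT cells, but 1.02 and 1.35 CPM in deficient and 2.76 and 2.35 CPM in add-back. SLC16A1-AS1 had 10.8, 11.7 and 12.3 CPM in KO cells and 16.3, 16.3 and 14.3 CPM in WT cells, and CLN8-AS1 had 5.65, 4.55 and 7.56 CPM in KO cells and 7.38, 6.37 and 12.7 CPM in WT cells. CLN8-AS1 had 7.63 and 7.59 CPM in deficient and 4.38 and 4.92 CPM in add-back. KIF9-AS1, SLC16A1-AS1 and CLN8-AS1 lost the call of this difference without at least 1 of the libraries, with an adjusted p of up to 0.075, 0.052 and 0.0926. Line, batch and vehicle cannot be told apart in this comparison.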

How the results depend on the processing

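Direction held for every named antisense RNA in each alternative. Apart from the block within treatments, the share of all genes called in an alternative is not given here. The counts below are therefore not read as a trait of the antisense RNAs. Counts of called antisense RNAs moved by over 1.5 times as follows, against 29 and 45 for KO against WT in DMSO and A1331852, 24 and 0 for the A1331852 response in KO and WT cells, 0 for the difference of responses, 46 in A498 and 18 for the difference between lines. The replicate block gave 59 in DMSO, 72 in A1331852, 60 for the KO response, 44 for the WT response, 4 for the difference of responses and 30 between lines, and within treatments 56 in DMSO and 70 in A1331852. In A498 the block gave 54; its 2 pairs share only a number (r = 0.211), and so do DMSO and A1331852 libraries. Without the batch term there were 14 in DMSO, 23 in A1331852 and 13 for the KO response. Batch 2 only gave 105 in DMSO, again with no share of all genes beside it. No filter on low counts gave 6 for the WT response, 7 for the difference of responses and 29 in A498, and DESeq2 gave 5, 5 and 24. Leaving out 1 library gave 12 to 15 in DMSO, 33 to 69 in A1331852, 6 to 19 for the KO response, 0 to 1 for the WT response, 0 to 5 for the difference of responses, 17 to 56 in A498 and 9 to 16 between lines. Of 86 named calls of antisense RNAs, 40 held without any 1 library.

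Changes of sign were confined, among named genes and these alternatives, to partner genes with no call; the cause was not tested. SBF2 in KO against WT in A1331852 (-0.00) became 0.01 with RLE size factors and with DESeq2, 0.02 with the block and 0.00 with the block within treatments, and ran from -0.34 to 0.42 with 1 library left out. In the KO response, POT1 (-0.18) became 0.04 with the block and 0.17 without the batch term, and MAP3K14 (0.09) became -0.12 and -0.76. With 1 library of A498 left out, its change ran from -0.04 to 0.48 for TENM3, -0.27 to 0.28 for DHRS4, -0.31 to 0.06 for STEAP1B, -0.12 to 0.22 for TRABD and -0.39 to 0.04 for PSMG3, and that of TRABD between lines from -0.13 to 0.21.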
